A study of Mus musculus with 12 samples.

Results

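The Cyp4a and Cyp4f genes encode cytochrome P450 enzymes that hydroxylate fatty acids at or near the terminal carbon, and 10 of them were followed in mouse liver: Cyp4a10, Cyp4a12a, Cyp4a12b, Cyp4a14, Cyp4a31, Cyp4a32, Cyp4f13, Cyp4f14, Cyp4f15 and the related Cyp4v3. The list was drawn up with earlier results of these data known. Its transcript clusters (the probe sets that stand for a gene on this array) were then taken by symbol alone. Each was a cluster whose symbol in the platform annotation was one of these 10. This found 8 clusters, 1 each for 8 of the genes, among 35557 clusters in all and 21789 with exactly 1 gene symbol. Cyp4a32 was represented by a single cluster that the annotation gives jointly to Cyp4a32, Cyp4a31 and Cyp4a10, and its values are given as those of the joint cluster. Cyp4v3, the mouse counterpart of human CYP4V2, shared its cluster with Klkb1, the gene of plasma kallikrein, so no value is given to it.

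Total liver RNA was hybridised to 12 Affymetrix mouse gene arrays, 3 in each of 4 groups set by genotype and thyroid state. Control mice were euthyroid on the arrays of replicates 13, 14 and 15 and hypothyroid on those of 17, 18 and 20. Mutant mice were euthyroid on those of 2, 3 and 4 and hypothyroid on those of 5, 6 and 7. Mutants are of the line L-NCoRΔID, which carries in liver a nuclear receptor corepressor (NCoR) that lacks receptor interaction domains. As the line is known, the change is made by Cre under the albumin promoter, so it is aimed at hepatocytes, and a shortened NCoR protein is still made. The series was designed to ask what NCoR does in genes that are positively and in genes that are negatively regulated. How hypothyroidism was produced, the age, sex and strain of the mice, and whether each array is a separate mouse are not given in the labels, so p-values measure the spread between these samples, which may in part be technical.

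Omega hydroxylation opens a side route of fatty acid breakdown. The hydroxylated acid is oxidised to a dicarboxylic acid in the cytosol and shortened in peroxisomes, and the same enzymes act on arachidonic acid and leukotrienes. Cyp4a10 and Cyp4a14 are textbook targets of PPARA, the fatty acid receptor that is switched on in fasting liver and by fibrates, while Cyp4a12a and Cyp4a12b are known as male-biased genes of mouse liver. Cyp4f14 and its relatives are known for the omega hydroxylation of leukotriene B4 and long-chain fatty acids. NCoR binds nuclear receptors that are not held active by ligand, among them the thyroid hormone receptors and PPARA, and brings a histone deacetylase to their target genes.

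The Cyp4a genes stand side by side on chromosome 4. In the RefSeq gene order of GRCm38.p6, protein-coding genes run from Cyp4a29 through Cyp4a12a, Cyp4a12b, Cyp4a30b, Cyp4a14, Cyp4a10 and Cyp4a31 to Cyp4a32, with Cyp4x1 on one side and Cyp4b1 on the other. Cyp4a12a and Cyp4a12b are near-identical copies, as are Cyp4a10, Cyp4a31 and Cyp4a32. Probes may therefore read more than 1 copy, and the copies of a set are not independent evidence.

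No promoter sequence was at hand for Cyp4a10, Cyp4a12a, Cyp4a12b, Cyp4a14 or Cyp4a31. It was at hand for the other 5 of the 10 members, Cyp4a32, Cyp4f13, Cyp4f14, Cyp4f15 and Cyp4v3, in RefSeq entries of build GRCm38.p6. The stretches below are shown because 4 of these 5 genes carry the letters ATTGG, the reverse of the CCAAT box, at a similar distance upstream, among them all 3 Cyp4f members. Each runs 5′ to 3′ in the direction of the gene, and the capitals mark ATTGG. They come from the minus strand of chr17:32947405-32947465 (Cyp4f13), the minus strand of chr17:32917374-32917434 (Cyp4f14), the plus strand of chr17:32685553-32685613 (Cyp4f15) and the plus strand of chr4:115600830-115600890 (Cyp4a32).
Cyp4f13: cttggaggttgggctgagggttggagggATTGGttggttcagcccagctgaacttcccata
Cyp4f14: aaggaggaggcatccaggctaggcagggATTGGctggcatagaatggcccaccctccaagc
Cyp4f15: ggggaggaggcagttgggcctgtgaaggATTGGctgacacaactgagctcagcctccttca
Cyp4a32: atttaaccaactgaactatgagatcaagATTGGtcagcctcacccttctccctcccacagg

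The capitals lay 76 bases before the annotated start of Cyp4f13, 78 bases before that of Cyp4f15 and 80 bases before that of Cyp4a32. Cyp4f14 has 4 promoter entries, and the same ATTGG lay 50, 64 or 77 bases before the start of 3 of them. The motif was chosen after the sequences were read. ATTGG on the strand of the gene was present in 19.7% of 32841 RefSeq mouse promoters over the 250 bases before the start, and in 10.4% over the last 100 bases. The receptor element AGGTCA, searched on both strands, was in 14% of all promoters and in 0 of the 8 member entries. Pairs of AGGNCA in the same direction and 1 base apart, the spacing PPARA binds, were in 0.338% of promoters and in 0 of the 8. At 4 bases apart, the spacing of the thyroid hormone receptors, they were in 0.213% of promoters and in 1 of the 8, a Cyp4f14 entry, 153 bases before its start. These matches describe letters only. They say nothing of Cyp4a10, Cyp4a12a, Cyp4a12b, Cyp4a14 and Cyp4a31, whose promoters were not searched.

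All values below are log2 signals made by RMA (robust multi-array average), in which a difference of 1 is a doubling. Differences are those of a limma fit to all 12 arrays with their standard error (SE), a p-value is adjusted over the 21789 clusters with 1 symbol, and a gene is said to rise, fall or be called where that adjusted p is under 0.05. Levels of different clusters are not on a common scale, so differences are taken only within 1 cluster. Where levels of different clusters stand side by side, they are a rough guide to high and low signal. In whole liver, fewer cells of a type and less RNA per cell cannot be told apart. Array medians lay between 4.16 and 4.32, and Xist was high (9.25 to 9.97) and the Y-linked Eif2s3y, Kdm5d and Uty low (1.57 to 2.54) on every array, the pattern of female mice. The hepatocyte marker list had a mean signal of 12.19 to 12.46 on the arrays, and the list of kidney proximal tubule genes, a tissue that also makes Cyp4a enzymes, one of 2.98 to 3.35. Ncor1, the gene that was changed, was named by 0 clusters, so its level was not analysed here. The table has no measure of background, so it cannot be said whether signals of 2 to 4, where Cyp4a12a and Cyp4a12b lay on several euthyroid arrays, were above it. The lowest of them were near those of the Y-linked genes. Folds of these genes with hypothyroidism are therefore ratios of signals, and lower bounds wherever the euthyroid signal was background.

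**Figure D1:**
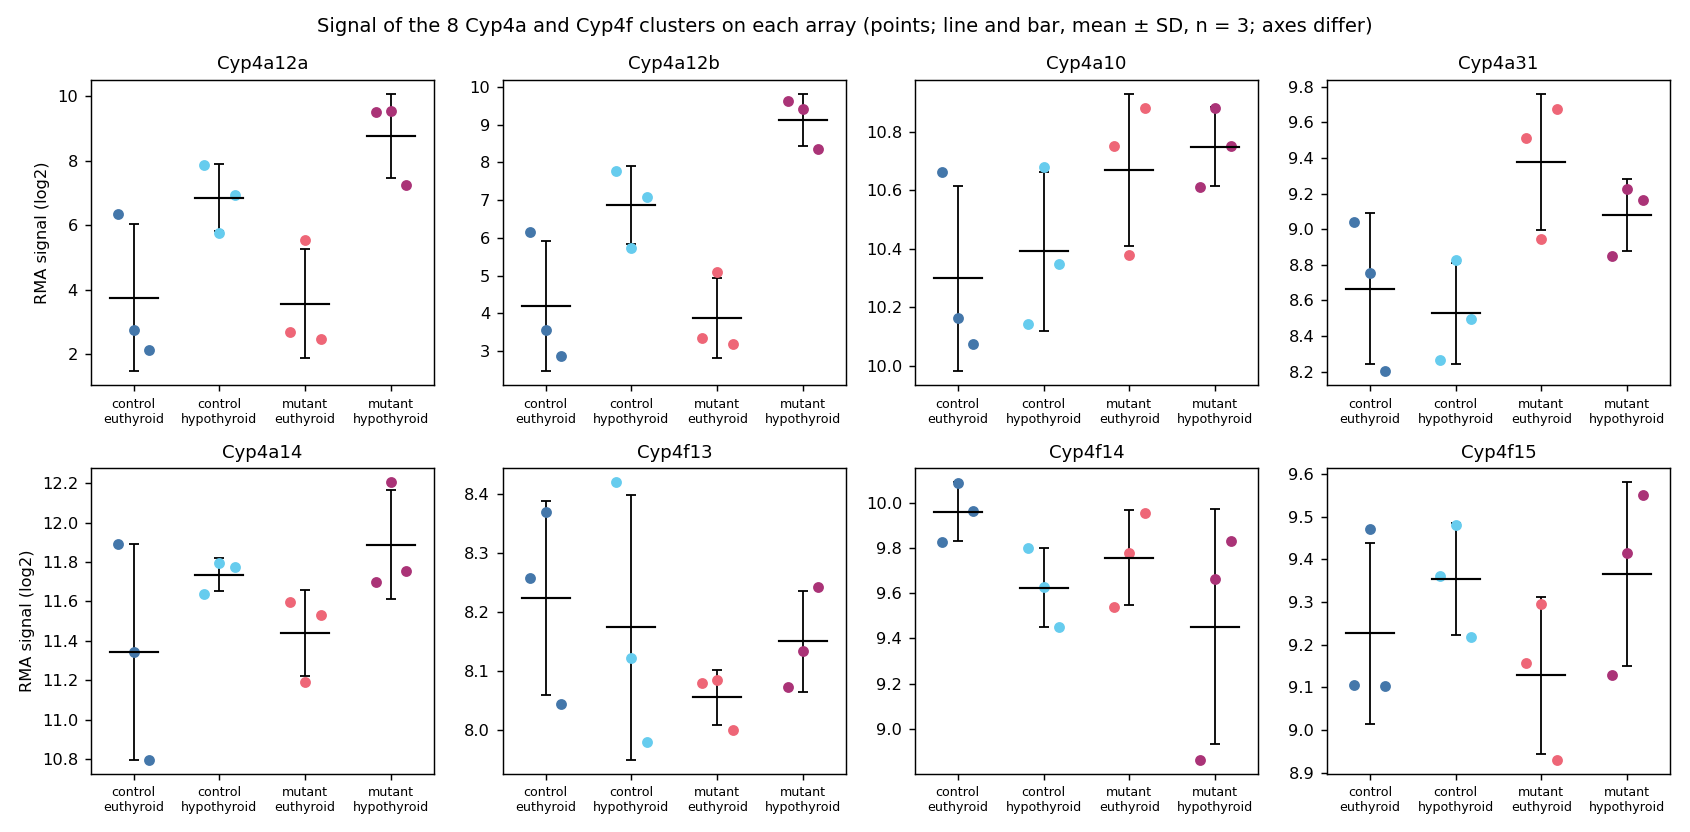
Log2 RMA signal (vertical axes, each with its own range) of the 8 Cyp4a and Cyp4f clusters on each array, by group (horizontal axis). Points are arrays, and the line and bar are the group mean and SD of 3 arrays. Cyp4a12a and Cyp4a12b span several log2 units, with hypothyroid mutants highest at means of 8.77 and 9.13, while the other 6 clusters stay within narrow ranges.

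Hypothyroidism was accompanied by a large rise of the paired genes Cyp4a12a and Cyp4a12b, and in mutant liver the rise passed the test. The signal of Cyp4a12a was 36.6-fold and that of Cyp4a12b 38.1-fold higher in hypothyroid than in euthyroid mutants, ratios against euthyroid signals that were not shown to be above background. In control liver both were also higher in hypothyroid mice, by 8.57-fold and 6.31-fold, but did not pass it. These were the only members called in any single comparison, 2 of 8 clusters in hypothyroid against euthyroid mutants, where 1.11% of all clusters were called. In hypothyroid against euthyroid controls, 0 of 8 were called by limma (2 at an unadjusted p under 0.05), with 1.11% of all clusters called there as well.

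Cyp4a12a, an omega hydroxylase of arachidonic acid, gave 2.70, 5.53 and 2.49 on the arrays of the euthyroid mutants and 9.51, 9.53 and 7.25 on those of the hypothyroid mutants. The groups did not overlap, and replicate 3 stood above the other euthyroid mutants. The difference was 5.20 ± 0.99 (SE; adjusted p = 0.0182). In controls it gave 6.36, 2.76 and 2.14 in euthyroid and 7.85, 5.77 and 6.94 in hypothyroid mice. These overlapped, because euthyroid replicate 13 lay above the lowest hypothyroid array. The difference was 3.10 ± 0.99 (adjusted p = 0.173).

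Cyp4a12b, its near-identical neighbour, gave 3.34, 5.09 and 3.20 in euthyroid mutants and 9.63, 9.41 and 8.34 in hypothyroid mutants. The groups did not overlap, and the difference was 5.25 ± 0.72 (95% interval 3.72 to 6.79; adjusted p = 0.00179). In controls it gave 6.16, 3.56 and 2.88 in euthyroid and 7.77, 5.73 and 7.08 in hypothyroid mice. Here too replicate 13 made the groups overlap, and the difference was 2.66 ± 0.72 (adjusted p = 0.0983). In order of the group means, Cyp4a12b was at 3.88 in euthyroid mutants, 4.20 in euthyroid controls, 6.86 in hypothyroid controls and 9.13 in hypothyroid mutants, with SDs of 1.05, 1.73, 1.03 and 0.69. Cyp4a12a had the same order. The euthyroid mutants and euthyroid controls did not differ beyond their spread, and the euthyroid and hypothyroid controls overlapped because of replicate 13.

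Between genotypes, Cyp4a12b was 4.82-fold higher in hypothyroid mutants than in hypothyroid controls, by 2.27 ± 0.72, with no overlap between the groups (adjusted p = 0.287). Cyp4a12a was 3.77-fold higher with overlap (adjusted p = 0.519). In euthyroid mice the mutant differences were -0.33 ± 0.72 for Cyp4a12b (adjusted p = 0.929) and -0.18 ± 0.99 for Cyp4a12a (adjusted p = 0.974). The 95% interval of the euthyroid difference of Cyp4a12b ran from -1.86 to 1.21, which includes a doubling in either direction. Whether the mutant effect differed between thyroid states was tested as an interaction, which for Cyp4a12b was 2.60 ± 1.02 (95% interval 0.42 to 4.77; adjusted p = 1). No cluster of the table passed that test (0% called by limma, 600 at an unadjusted p under 0.05). Among the members, 1 of 8, Cyp4a12b, had an unadjusted p under 0.05.

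Averaged over both genotypes, a comparison added after the data were seen, the signal of hypothyroid livers was 17.7-fold higher for Cyp4a12a (4.15 ± 0.70; adjusted p = 0.00285) and 15.5-fold higher for Cyp4a12b (3.96 ± 0.51; adjusted p = 0.000294), ratios with the same limit at the low end. Here 2 of 8 members were called against 6.04% of all clusters. The spread of both genes between arrays of a group was among the widest on the array. The pooled SD within groups was 1.65 for Cyp4a12a and 1.19 for Cyp4a12b, against a median of 0.193 over all clusters, and 5 clusters exceeded the first and 15 the second. In each group the array farthest from the others was the same for both genes. Within each genotype the SD of all clusters was also wider on hypothyroid than on euthyroid arrays, at 2.316 to 2.35 against 2.259 to 2.307 in mutants and 2.288 to 2.296 against 2.219 to 2.285 in controls. Across genotypes it was not, since euthyroid mutant replicate 3, at 2.307, was wider than every hypothyroid control. With that array SD as a covariate the difference in mutants was 3.15 for Cyp4a12a (adjusted p = 0.524) and 3.83 for Cyp4a12b (adjusted p = 0.174). The averaged one was 2.45 (adjusted p = 0.401) and 2.78 (adjusted p = 0.124), so that none of the 4 calls held. This SD separated the thyroid states within each genotype, so the fit cannot tell its part from that of hypothyroidism.

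Single arrays mattered too. The call of Cyp4a12a in mutants was lost without euthyroid mutant replicate 2 (4.76, adjusted p = 0.095) or 4 (4.65, adjusted p = 0.108) and without hypothyroid mutant replicate 5 (4.82, adjusted p = 0.0847) or 6 (4.81, adjusted p = 0.0849). The difference stayed close to the 5.20 of all arrays, while that of Cyp4a12b held with each array left out. Without euthyroid control replicate 13, the control difference was 4.40 for Cyp4a12a (adjusted p = 0.0124) and 3.64 for Cyp4a12b (adjusted p = 0.00392), and both were called.

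**Figure D2:**
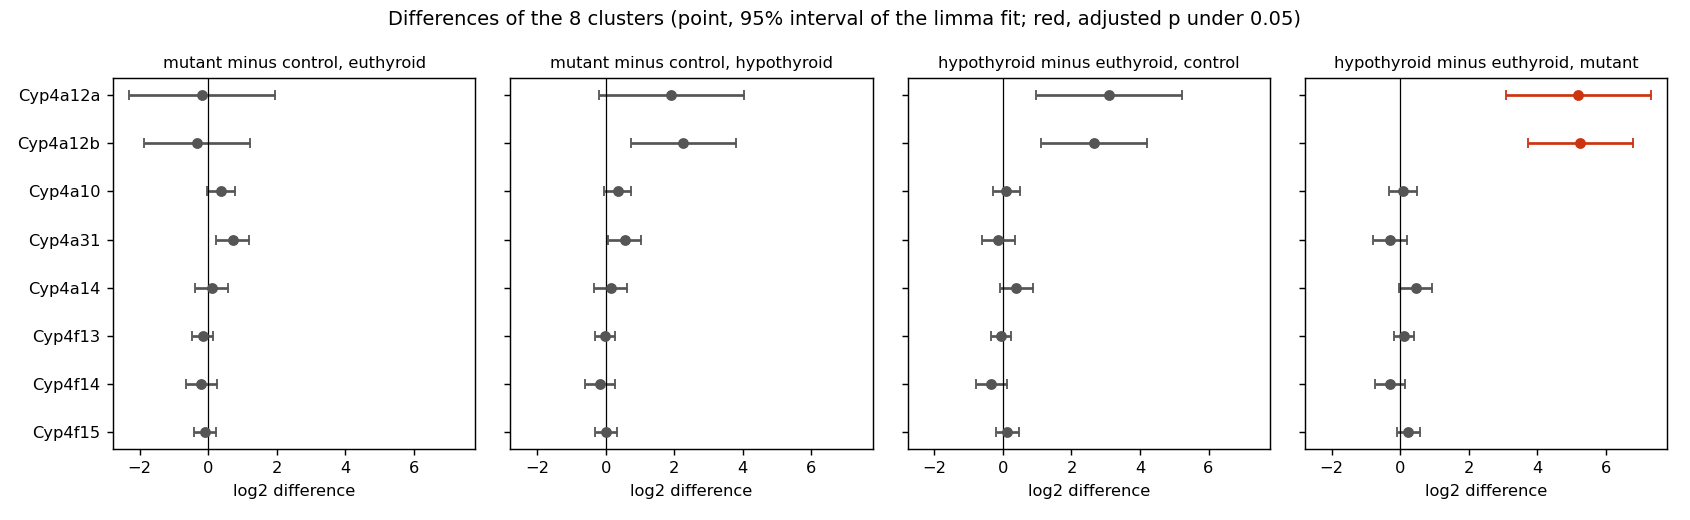
Log2 differences (horizontal axis) of the 8 clusters (vertical axis) in the 4 comparisons of groups, as points with the 95% interval of the limma fit. Red marks an adjusted p under 0.05, which holds for Cyp4a12a and Cyp4a12b in hypothyroid against euthyroid mutants, at 5.20 and 5.25.

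Because Cyp4a12a and Cyp4a12b are known as male-biased liver genes, lists of male-biased and female-biased genes were followed in the same arrays. Of 13 measured male-biased genes, 2 rose and 3 fell in hypothyroid against euthyroid controls, and the same 5 genes were called in the same directions in mutants. Those that rose were Cyp2d9, a steroid hydroxylase (2.11 ± 0.42 in controls and 1.85 ± 0.42 in mutants), and Gstp1, a glutathione transferase (1.18 ± 0.25 and 1.56 ± 0.25). Those that fell were Elovl3, a fatty acid elongase (-2.17 and -3.25), Nudt7, a peroxisomal coenzyme A diphosphatase (-2.67 and -1.72), and Sult5a1, a sulfotransferase (-3.75 and -3.63). The list median was -0.31 in controls and -0.16 in mutants, beside -0.01 and -0.02 over all clusters. In each of these comparisons 1.11% of all clusters were called. The list had no common direction. Between genotypes Cyp7b1 was called, and it rose in mutants averaged over thyroid states (1.17 ± 0.19, adjusted p = 0.00756). In euthyroid controls, replicate 13 held the highest value for 8 of the 13 genes, against 38.1% of all clusters. That array and euthyroid mutant replicate 3, both high in Cyp4a12a and Cyp4a12b, had the highest list mean of their groups (7.395 and 7.40). In hypothyroid controls the mean was highest on replicate 17 (6.39), as both genes were. In hypothyroid mutants it was lowest on replicate 5 (6.10), the array highest in Cyp4a12b. The link was not tested.

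Of 14 measured female-biased genes, none rose and 3 fell in hypothyroid controls, and 4 fell in hypothyroid mutants. Cyp17a1, the steroid hydroxylase and lyase, fell by 2.52 in controls and 2.67 in mutants, and A1bg, a secreted glycoprotein, fell by 4.35 and 4.54. Cyp3a44 fell in controls, by 1.74, and Cyp3a16 and Prom1 in mutants, by 6.02 and 1.55. The list medians were -1.05 and -1.24, and 1.11% of all clusters were called in each comparison. Between genotypes Prom1 rose in euthyroid mutants against controls (1.43 ± 0.25, adjusted p = 0.0391). It also rose in mutants averaged over thyroid states (0.83 ± 0.18, adjusted p = 0.0364). Cyp3a16, a P450 of female and young mouse liver, gave 2.57, 6.16 and 8.81 in euthyroid controls, where the low value was that of replicate 13, the array with the highest Cyp4a12a and Cyp4a12b of its group. Its values in euthyroid mutants were 8.95, 8.96 and 8.94, so replicate 3, the euthyroid mutant highest in Cyp4a12b, was not low. Cyp3a16 does not stand for its list, of which replicate 13 held the lowest of the 3 euthyroid control values for 4 genes of 14 and the highest for another 4. Among the latter were Cyp2b9 (11.97, against 11.22 and 11.35), Cyp2b10 (10.33, against 8.74 and 8.54) and Cyp2b13 (9.85, against 8.87 and 8.73), all P450s. In hypothyroid mice Cyp2b9 was at 2.56 on control replicate 17 and 3.27 on mutant replicate 6, against 10.72 to 11.65 on the others. Cyp2b13 was at 2.48 and 2.19 there, against 8.62 to 10.07. Replicate 17 was the highest of its group in Cyp4a12a and Cyp4a12b, and replicate 6 in Cyp4a12a, narrowly, but not in Cyp4a12b. Whether these values go together was not tested.

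**Figure D3:**
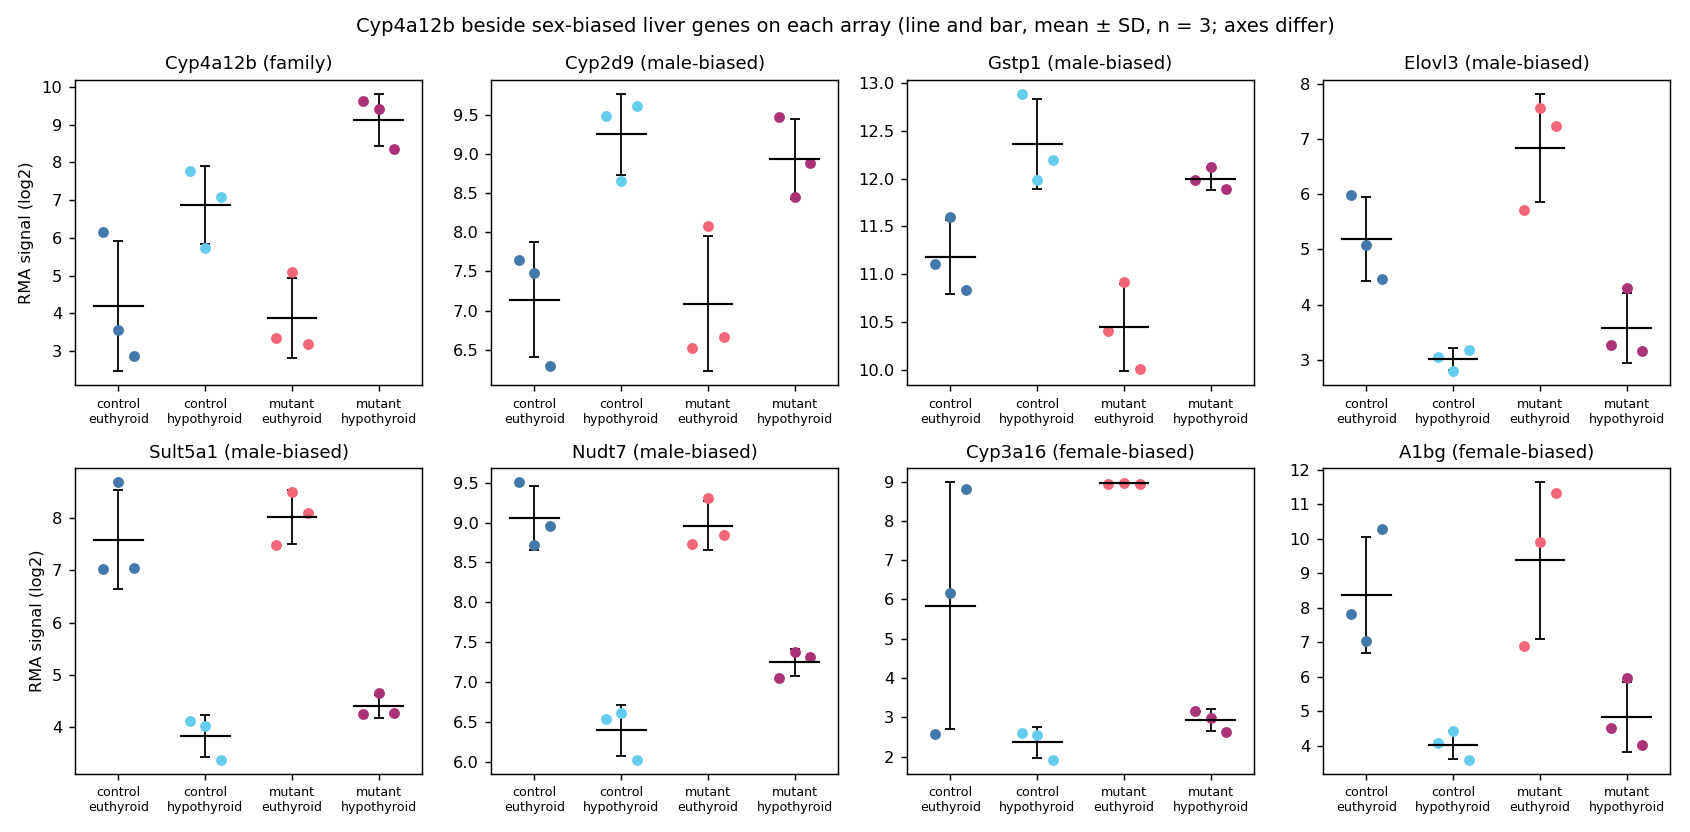
Log2 RMA signal (vertical axes, each with its own range) of Cyp4a12b, 5 male-biased and 2 female-biased liver genes on each array, by group. Points are arrays, and the line and bar are the mean and SD of 3. Cyp2d9 and Gstp1 are higher in hypothyroid groups, as Cyp4a12b is, while Elovl3, Sult5a1 and Nudt7 are lower, and Cyp3a16 is at 2.57 on 1 euthyroid control array.

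In mutant against control liver, the Cyp4a10 and Cyp4a31 clusters were higher in both thyroid states by amounts that did not pass the test. Of the 8 clusters, 0 were called by limma in euthyroid mice (1 at an unadjusted p under 0.05, and 0.129% of all clusters called). In hypothyroid mice 0 of 8 were called (2 at an unadjusted p under 0.05, and 0.262% of all clusters called). Averaged over thyroid states 0 of 8 were called (2 at an unadjusted p under 0.05, and 1.14% of all clusters called). The median difference of the 8 was -0.13 in euthyroid and 0.25 in hypothyroid mice, beside 0 and -0.02 over all clusters.

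Cyp4a31, a close copy of Cyp4a10, gave 9.04, 8.75 and 8.20 in euthyroid controls and 9.51, 8.94 and 9.68 in euthyroid mutants. These overlapped, and the difference was 0.71 ± 0.23 (adjusted p = 0.437). In hypothyroid mice it gave 8.26, 8.83 and 8.50 in controls and 8.85, 9.23 and 9.17 in mutants. The hypothyroid groups did not overlap, by a narrow margin, and the difference was 0.55 ± 0.23 (adjusted p = 0.422). Averaged over thyroid states Cyp4a31 was 1.55-fold higher in mutants (0.63 ± 0.16; 95% interval 0.29 to 0.97; adjusted p = 0.075).

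Cyp4a10, the best known PPARA target of the family, gave 10.66, 10.16 and 10.07 in euthyroid controls and 10.75, 10.38 and 10.88 in euthyroid mutants. In hypothyroid mice it gave 10.14, 10.68 and 10.35 in controls and 10.61, 10.88 and 10.75 in mutants. The genotypes overlapped in both states, with replicate 13 the highest euthyroid control. The differences were 0.37 ± 0.19 and 0.36 ± 0.19, and the average was 1.29-fold (95% interval of the log2 difference 0.09 to 0.64; adjusted p = 0.187). The joint cluster of Cyp4a32, Cyp4a31 and Cyp4a10 gave 10.89, 10.41 and 9.996 in euthyroid controls, 10.13, 10.61 and 10.48 in hypothyroid controls, 10.89, 10.54 and 11.03 in euthyroid mutants and 10.64, 11.13 and 10.84 in hypothyroid mutants. The highest euthyroid control was replicate 13 in this cluster as well. The averaged mutant difference was 0.42 ± 0.16 (adjusted p = 0.316 over all 35557 clusters).

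Leaving out replicate 13 brought 3 of the 8 clusters past the threshold in the averaged mutant comparison. These were Cyp4a31 (0.73, adjusted p = 0.0142), Cyp4a10 (0.46, adjusted p = 0.0336) and Cyp4a12b (1.46, adjusted p = 0.0325). Cyp4a31 was also called without euthyroid mutant replicate 3 (0.74, adjusted p = 0.0427), and with each of the other 10 arrays left out none was. With arrays weighted by how well they fit their group, Cyp4a31 was called in euthyroid mice (1.10, adjusted p = 0.0166), and on average Cyp4a31 (0.85, adjusted p = 0.00269) and Cyp4a10 (0.49, adjusted p = 0.0193) were. Calls over all clusters moved as well. For the averaged comparison they ranged from 107 to 1866 with 1 array left out and from 41 to 1711 under the other settings, beside 248. In euthyroid mice they ranged from 10 to 197 under the other settings, beside 28. These are ranges over settings, not the counts of the settings named above. Whether the gains among members went beyond those of all clusters was not tested.

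**Figure D4:**
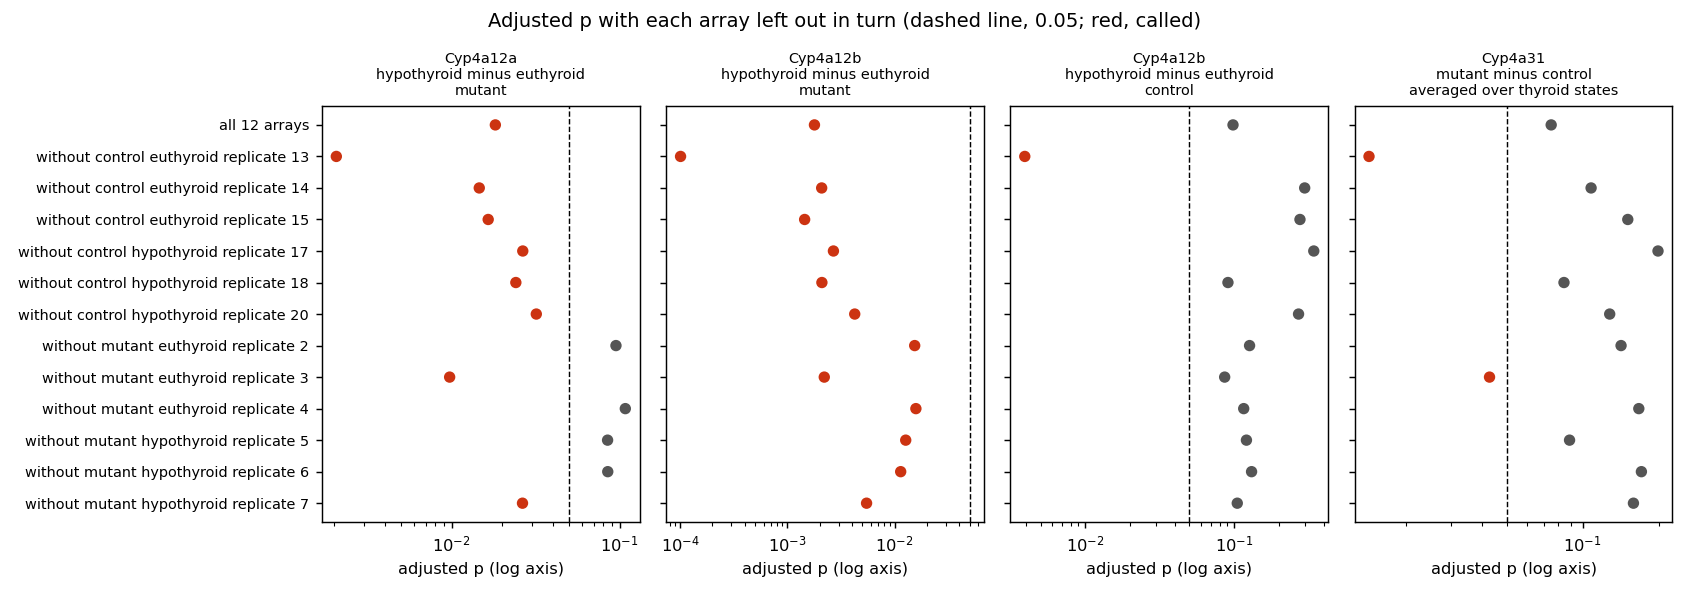
Adjusted p (horizontal axes, logarithmic) of 4 results with all 12 arrays and with each array left out in turn (vertical axis). Red points lie under 0.05, marked by the dashed line. Cyp4a12b in mutants stays under it, Cyp4a12a in mutants does so for 8 of the 12, and the results of Cyp4a12b in controls and of Cyp4a31 move under it without euthyroid control replicate 13.

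The list of 24 other measured PPARA targets held a few called genes. In euthyroid mice 1 of 24 rose in mutants, Ehhadh (1.48 ± 0.21; adjusted p = 0.0107), the bifunctional enzyme that carries dicarboxylic acids through peroxisomal beta oxidation. In hypothyroid mice 2 rose, Ehhadh (1.38 ± 0.21; adjusted p = 0.011) and Pdk4, a kinase that shuts down pyruvate dehydrogenase (1.81 ± 0.35; adjusted p = 0.0493). Averaged over thyroid states 5 rose and 1 fell: Ehhadh, Pdk4, the peroxisomal thiolase Acaa1b (0.75 ± 0.15; adjusted p = 0.0258), the thioesterase Acot1 (0.79 ± 0.15; adjusted p = 0.0197) and the fatty acid transporter Cd36 (0.88 ± 0.19; adjusted p = 0.0381) rose, and the transcription factor gene Creb3l3 fell by 0.54 (adjusted p = 0.0336). The median of the 24 was 0.08 in that comparison, beside -0.02 over all clusters. Of all clusters, 0.129% were called in euthyroid mutants against controls, 0.262% in hypothyroid ones and 1.14% on average. The average of Cd36 joins unlike values, 1.465 ± 0.27 in euthyroid (adjusted p = 0.0513) and 0.30 ± 0.27 in hypothyroid mice (adjusted p = 0.697). Cd36 also rose with hypothyroidism in controls, by 1.85 (adjusted p = 0.00199).

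Ehhadh gave 10.23, 9.28 and 9.60 in euthyroid controls, 9.95, 10.54 and 10.09 in hypothyroid controls, 11.42, 11.10 and 11.03 in euthyroid mutants and 11.45, 11.67 and 11.61 in hypothyroid mutants. Every mutant array lay above every control array. Replicate 13 was again the highest euthyroid control. It held the highest of the 3 euthyroid control values for 14 of the 24 PPARA targets, against 38.1% of all clusters, replicate 14 for 4, against 37.2%, and replicate 15 for 6, against 24.7%. The mean signal of the 24 was 8.44, 7.89 and 8.28 on these arrays, so that replicate 14 was the one farthest from the others. The part of replicate 13 in the results of Cyp4a10 and Cyp4a31 is given by the values without it above.

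**Figure D5:**
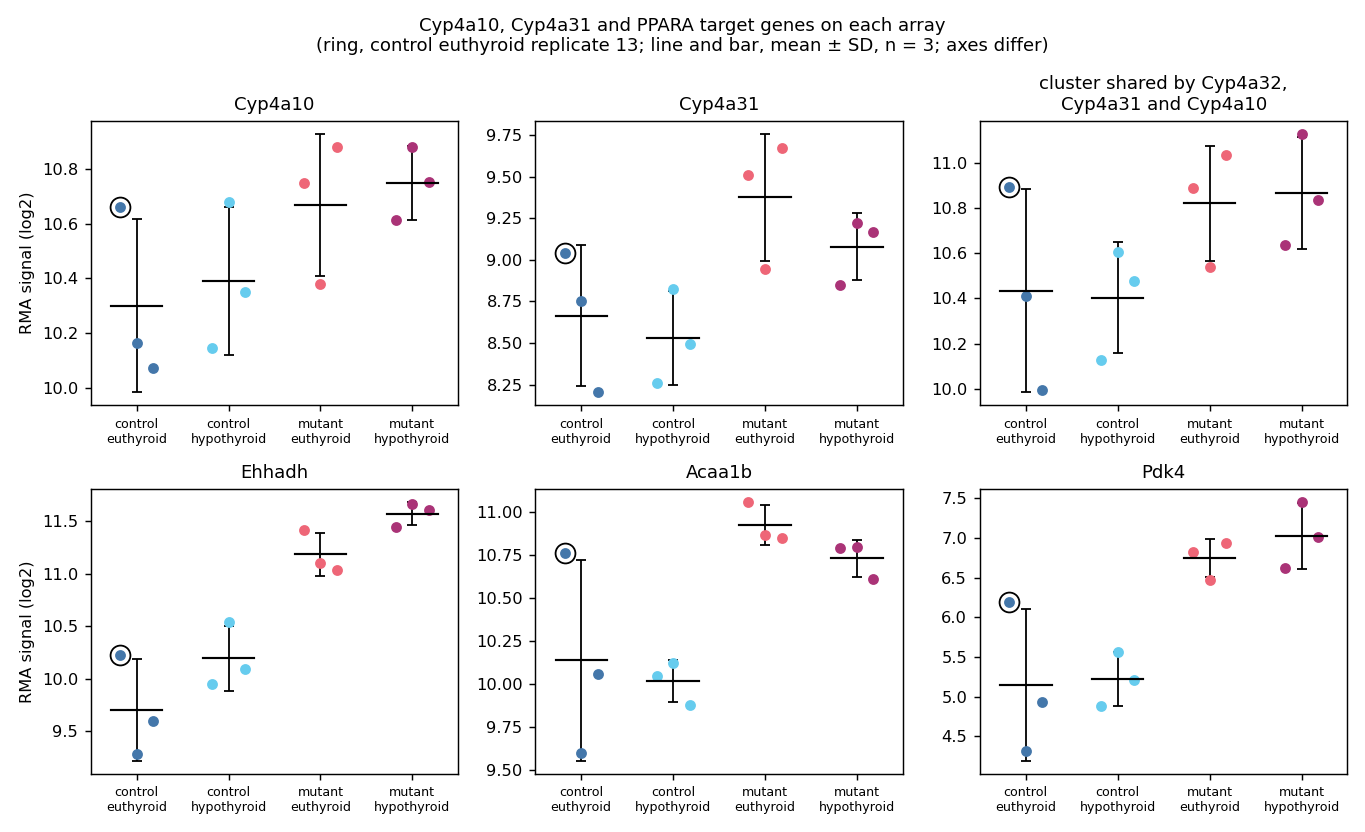
Log2 RMA signal (vertical axes, each with its own range) of Cyp4a10, Cyp4a31, the joint cluster and the PPARA targets Ehhadh, Acaa1b and Pdk4 on each array, by group. Points are arrays, the line and bar are the mean and SD of 3, and the ring marks euthyroid control replicate 13. In all 6 panels that array is the highest of its group. Ehhadh, Acaa1b and Pdk4 are higher in mutants, averaged over thyroid states, by 1.43, 0.75 and 1.70.

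Among 11 measured genes for PPARA and its partner regulators, Ppara itself was not called in any comparison, with mutant differences of -0.05 in euthyroid and -0.25 in hypothyroid mice. Averaged over thyroid states Ppard, another fatty acid receptor, rose in mutants (0.76 ± 0.14; adjusted p = 0.0169), and Nr1i3, the xenobiotic receptor CAR, fell by 0.65 (adjusted p = 0.0365). With hypothyroidism, Pparg rose in both genotypes (1.37 ± 0.20 in controls and 0.99 ± 0.20 in mutants), and the coactivator gene Ppargc1a rose in controls (1.26 ± 0.23; adjusted p = 0.0122). The mean signal of 12 markers of Kupffer cells, the macrophages of the liver, ranged from 5.86 to 5.98 in euthyroid controls, 5.35 to 5.53 in hypothyroid controls, 6.19 to 7.25 in euthyroid mutants and 5.37 to 6.22 in hypothyroid mutants. The hypothyroid groups overlapped. Of the 12 markers, 0 were called by limma between genotypes within a thyroid state, with medians of 0.59 in euthyroid and 0.40 in hypothyroid mice. Adgre1 rose in mutants averaged over thyroid states (0.66 ± 0.15, adjusted p = 0.0427). Clec4f fell by 1.06 in hypothyroid against euthyroid mutants. The part of these cells in the family's values was not tested.

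Cyp4a14, the other classic PPARA target of the family, gave 11.89, 11.34 and 10.80 in euthyroid controls and 11.64, 11.80 and 11.77 in hypothyroid controls. In mutants it gave 11.60, 11.19 and 11.53 in euthyroid and 11.70, 12.21 and 11.75 in hypothyroid mice. The thyroid states overlapped in controls, where replicate 13 was above all hypothyroid arrays, and were separate in mutants. The hypothyroid difference was 0.39 ± 0.22 in controls (adjusted p = 0.481) and 0.45 ± 0.22 in mutants (adjusted p = 0.342), and the average was 1.34-fold (adjusted p = 0.12). Without replicate 13 the average was 0.56 and called (adjusted p = 0.0124). Calls over all clusters in this comparison ranged from 680 to 3579 with 1 array left out, beside 1317 with none left out. The mutant differences were 0.10 ± 0.22 in euthyroid and 0.15 ± 0.22 in hypothyroid mice, with 95% intervals of -0.38 to 0.57 and -0.33 to 0.63.

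None of the 3 Cyp4f clusters was called, and the largest difference between groups was -0.33. Cyp4f14, a leukotriene B4 hydroxylase, gave 9.83, 10.09 and 9.96 in euthyroid controls, 9.80, 9.63 and 9.45 in hypothyroid controls, 9.54, 9.78 and 9.95 in euthyroid mutants and 8.86, 9.66 and 9.83 in hypothyroid mutants. The hypothyroid controls lay below the euthyroid ones without overlap, by a margin of a few hundredths, and hypothyroid mutant replicate 5 was the lowest of all arrays. The hypothyroid difference was -0.33 ± 0.21 in controls (adjusted p = 0.521) and -0.30 ± 0.21 in mutants (adjusted p = 0.481), with an average of -0.32 ± 0.15 (95% interval -0.63 to -0.005; adjusted p = 0.196).

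Cyp4f13 gave 8.26, 8.37 and 8.04 in euthyroid controls, 8.42, 8.12 and 7.98 in hypothyroid controls, 8.08, 8.09 and 8.0 in euthyroid mutants and 8.07, 8.13 and 8.24 in hypothyroid mutants. All groups overlapped. With a pooled SD of 0.148 within groups it was the steadiest member, and the largest of its 4 differences between groups was -0.17 ± 0.14, in euthyroid mutants against controls. Cyp4f15 gave 9.11, 9.47 and 9.10 in euthyroid controls, 9.36, 9.48 and 9.22 in hypothyroid controls, 9.16, 9.30 and 8.93 in euthyroid mutants and 9.13, 9.42 and 9.55 in hypothyroid mutants. Its groups overlapped too, and its largest difference was 0.24 ± 0.16, in hypothyroid against euthyroid mutants. The 95% intervals of these differences reached no further than 0.78 from 0 for Cyp4f14, 0.46 for Cyp4f13 and 0.57 for Cyp4f15, which leaves room for changes under a doubling.

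The other 7 measured Cyp4 genes had no call in any comparison by limma. The largest differences between groups were those of Cyp4f39 with hypothyroidism, at -0.36 ± 0.16 in mutants and -0.33 ± 0.16 in controls. Next came Cyp4f40 in euthyroid mutants against controls, at -0.31 ± 0.15. Of 19 genes for the steps after omega hydroxylation, 0 were called between genotypes in either thyroid state. The largest differences were those of Abcd3, a peroxisomal fatty acid transporter (0.61 ± 0.23 in euthyroid and 0.74 ± 0.23 in hypothyroid mice). With hypothyroidism Acox2, the branched-chain acyl-CoA oxidase, rose in controls (0.64 ± 0.14, adjusted p = 0.0462). Scp2, a peroxisomal thiolase and sterol carrier, rose in mutants (1.17 ± 0.20, adjusted p = 0.00803). Averaged over genotypes, 5 of the 19 rose with hypothyroidism, Cyb5b, Adh5, Crat, Acox2 and Scp2. Decr2 fell in that comparison (-0.62 ± 0.13), in which 6.04% of all clusters were called. Of 17 eicosanoid enzymes, 0 were called between genotypes and 0 in hypothyroid controls. In hypothyroid against euthyroid mutants Ephx1, the microsomal epoxide hydrolase, rose (1.11 ± 0.25, adjusted p = 0.0458). Ptgds, a prostaglandin D synthase, fell there by 0.82 (adjusted p = 0.00961).

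Genes with the most similar profile were found as the smallest root mean square (RMS) difference between profiles over the 12 arrays, each centred on its own mean. For Cyp4a10, whose own RMS was 0.28, they were Ercc3 (0.13), Gfm1 (0.137) and Afg1l (0.141). For Cyp4a14, with an RMS of 0.347, they were Gtf2ird1 (0.156), Prkca (0.182) and Dcn (0.192), and for Cyp4f14, with 0.307, they were Kyat1 (0.108), Ctdsp2 (0.155) and Rgp1 (0.16). For Cyp4a12b, added after the data were seen and with an RMS of 2.35, Cyp4a12a came first (0.469), and the nearest outside the family were Gstm3 (1.43), Cyp2d9 (1.5) and Cbr3 (1.51). The 12 arrays span 4 groups, so this likeness includes the differences between groups.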

How the data were processed

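The deposited table holds log2 signals that the authors made with RMA, per the submitters' processing notes; the version and options were not given in the sources used here, and without scan dates no batch was tested. The values carry no measure of background, and array medians and SDs differ slightly. Genes were named from the platform annotation, and clusters with several symbols name no gene.

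Differences were computed from these log2 values with limma 3.58.1 in R 4.3.3, as contrasts of 4 group means over 12 arrays (residual degrees of freedom 8, prior 6.83), with Benjamini-Hochberg adjustment over 21789 clusters with 1 symbol, whatever their level. The joint cluster was adjusted over all 35557. Comparisons that share arrays are not independent. Precision is limited by the number of arrays.

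The members and lists were chosen with earlier results of these data known. The text names every member and, for likeness, the 3 nearest clusters. For lists the rule was the called genes, up to 4 in a comparison or else the 4 largest. Where none was called, it was the 2 largest differences. The rule was not followed for every list and comparison, and most list calls in hypothyroid mice on average are not given. Genes shown beyond the rule in sentences or plots were chosen after their values were seen. Promoters are RefSeq entries of GRCm38.p6. The fit was tested on simulated data. Alternatives were other scalings, other sets of clusters, compared groups only, a variance trend, array weights (gene by gene), array SD as a covariate, and arrays left out.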

Additional observations from a re-analysis of the deposited data

How the results depend on the processing

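The 56 member differences were recomputed under 21 other settings, or 20 where a comparison needs all groups. Of the 1152 values this gave, 70 changed sign, none of them called. Quantile normalization, median centring, a filter at the median level, a variance trend and leaving out both arrays that stood apart (euthyroid control replicate 14 and hypothyroid mutant replicate 7) kept the number of members called in every comparison. In hypothyroid against euthyroid mutants the 2 members called became 1 with every cluster tested, where Cyp4a12a had an adjusted p of 0.0957, and 0 with the array SD as a covariate. That covariate also left 0 of the 2 called on average over genotypes, but within a genotype it cannot be told apart from thyroid state. With the compared groups only, 1 member, Cyp4a12b, was called in hypothyroid mutants against controls (adjusted p = 0.0499). Array weights gave 1 in euthyroid mutants against controls, 3 in hypothyroid against euthyroid controls, 2 in mutants against controls on average and, with Cyp4a14 (0.64, adjusted p = 0.00627), 3 in hypothyroid mice on average. The causes were not tested. With each array left out in turn, members called ranged from 0 to 2 in hypothyroid controls, 1 to 2 in hypothyroid mutants, 0 to 3 in mutants on average and 2 to 3 in hypothyroid mice on average, and stayed at 0 in the other comparisons.

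Counts over all clusters moved more. The 28 called in euthyroid mutants against controls ranged from 6 to 197, the 57 in hypothyroid mutants against controls from 9 to 421, the 242 in hypothyroid controls from 134 to 1403, the 241 in hypothyroid mutants from 36 to 742, the 0 of the interaction from 0 to 1, the 248 of mutants on average from 41 to 1866 and the 1317 of hypothyroid mice on average from 181 to 3772. No paired analysis was possible because the groups share no replicate numbers. Low signals have no stated background, so how far the lowest Cyp4a12a and Cyp4a12b values lay from it was not measured.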
